A study of Mus musculus with 8 samples.

Results

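Ephrins, semaphorins and their receptors were followed across 4 groups of mouse pluripotent cells, as 52 of the 22180 genes that the array names through a probe set of their own. Members were taken by gene symbol alone: 8 ephrins, 13 Eph receptors, 20 semaphorins, 9 plexins and 2 neuropilins. Where a member had several such probe sets, its brightest probe set, by the mean of the 8 arrays, was used. Each group had 2 arrays (Affymetrix Mouse Gene 2.1), 8 in all, and every sample was wild type on the C57BL/6J strain. FGF-ESC, the lines under study, and EpiSC, lines of the primed epiblast state, grew on mouse embryonic fibroblast feeders (MEF) in KODMEM containing FGF2 and 20% serum replacement (KSR). ESC, lines of the naive state, grew feeder-free in DMEM with LIF, the inhibitor pair called 2i and, in the labels, 15% serum (FCS). ICM was uncultured inner cell mass isolated by immunosurgery from blastocysts of embryonic day 3.5, the stage the labels also give as the origin of all 3 kinds of line. ESC thus differed from the other lines in feeders and in medium at once, and RNA of ICM was purified with another column kit, so that kit and group cannot be told apart in any comparison with ICM. Whether both arrays of a group stem from different cultures, clones or pools of embryos is not in the labels, and the p-values therefore cover the spread of these arrays alone, possibly a technical one.

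Ephrins are ligands anchored in the cell membrane, the A class by a lipid anchor and the B class by a transmembrane segment, and Eph receptors are the receptor tyrosine kinases that bind them on neighbouring cells. Binding can signal into both cells, and the outcome is often repulsion or sorting of cells that carry different members. Semaphorins are secreted or membrane-bound guidance proteins that act through plexins, receptors that control small GTPases and the actin cytoskeleton, and class 3 semaphorins mostly need a neuropilin as the binding partner. Both systems are best known from axon guidance and vessel growth, and in the early embryo they are studied mainly for the sorting of cells into layers.

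Levels are log2 intensities as deposited, so a difference of 1 is a doubling, and they are compared between samples of the same gene, never between genes. Of the 52 members, 39 were above the median of all deposited values, 4.24, on at least 2 arrays and were tested, and 23 of these were above it on all 8 arrays. The other 13, namely Epha3, Epha5, Epha6, Ephb1, Sema3a, Sema3b, Sema3d, Sema3g, Sema4c, Sema4f, Sema6b, Plxnc1 and Plxnd1, lay between 2.88 and 4.75 on every array and were not tested. Nrp1 and Sema3c were above the median in FGF-ESC alone, so that they entered the test only through the group in which they were high. Ephb2 was not analysed here. To pass in a comparison a member needed an adjusted p under 0.05 in limma's fit of all 13597 tested genes and group means at least 1 apart, up or down. Each fold change below is given with limma's SE, from 2 arrays per group.

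EpiSC had the lowest naive and the highest primed marker means, while the naive means of FGF-ESC and ICM overlapped. Fibroblast marker means were highest in FGF-ESC, neural ones in EpiSC, and trophectoderm and primitive endoderm ones in ICM. The mean level of 12 naive pluripotency markers was 7.18 and 7.55 in FGF-ESC, 4.74 and 5.21 in EpiSC, 7.86 and 7.86 in ESC and 7.54 and 7.53 in ICM. The 10 primed epiblast markers averaged 5.33 and 5.18 in FGF-ESC, 6.71 and 6.98 in EpiSC, 4.80 and 4.81 in ESC and 4.74 and 4.69 in ICM. Fibroblast markers (25 genes, such as collagens, Dcn and Lum) averaged 8.25 and 7.03 in FGF-ESC, 4.79 and 5.03 in EpiSC, 4.23 and 4.26 in ESC and 4.25 and 4.43 in ICM. Of the 25 markers, 25 and 23 exceeded the overall median on the FGF-ESC arrays, against 17 and 19 in EpiSC, 12 and 11 in ESC and 11 and 15 in ICM. Neural markers (9 genes) averaged 4.30 and 4.29 in FGF-ESC, 5.48 and 5.32 in EpiSC, 4.33 and 4.30 in ESC and 3.98 and 3.87 in ICM. Trophectoderm markers (9 genes, such as Krt8 and Cdx2) averaged 4.77 and 4.72 in FGF-ESC, 4.83 and 5.10 in EpiSC, 5.03 and 5.02 in ESC and 5.68 and 5.69 in ICM. Primitive endoderm markers (12 genes, such as Gata6 and Pdgfra) averaged 4.97 and 4.71 in FGF-ESC, 4.51 and 4.57 in EpiSC, 4.31 and 4.38 in ESC and 5.81 and 5.85 in ICM. Of 7 tested trophectoderm markers, 4 fell in FGF-ESC, 2 in EpiSC and 3 in ESC relative to ICM, and of 10 tested primitive endoderm markers 3, 6 and 6 fell, while 0, 1 and 1 rose. The part of these cell types in the differences of members from ICM was not tested. In bulk RNA, more cells with fibroblast marker transcripts and more of these transcripts per cell cannot be told apart. Which cells carried them was not tested.

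The members did not move in 1 direction as a class, and EpiSC was the group that most often stood highest. By the F-test over all 4 groups, 17 of the 39 tested members varied with a range of group means of at least 1, which is 43.6% of them, against 24.9% of all tested genes. Of these 17, 4 were highest in FGF-ESC (23.5%), 10 in EpiSC (58.8%), 0 in ESC and 3 in ICM (17.6%), against 28%, 25.4%, 15.3% and 31.3% of the 3383 genes past the same test. Nrp1 and Sema3c, tested only through FGF-ESC, are among the 4 highest there and among the rises over ESC. Nrp1 is also among the rises of FGF-ESC over EpiSC and ICM. Between FGF-ESC and ESC 5 members passed, 4 higher and 1 lower (12.8% of those tested, against a background of 6.21% of all tested genes, 5.27% higher and 0.934% lower). Between FGF-ESC and EpiSC 10 passed, 4 higher and 6 lower (25.6%, background 7.28%, 5.26% higher and 2.02% lower), and between FGF-ESC and ICM 6 passed, 5 higher and 1 lower (15.4%, background 14.8%, 9.57% higher and 5.22% lower, a share near the background). EpiSC differed from ESC in 9 members, 8 higher and 1 lower (23.1%, background 7.36%, 3.86% higher and 3.5% lower). Fewer members, and fewer of all tested genes, were higher there when ESC replicate 2 was left out. From ICM, EpiSC differed in 11, 8 higher and 3 lower (28.2%, background 15.3%, 8.48% higher and 6.8% lower). ESC differed from ICM in 3, 2 higher and 1 lower (7.69%, background 11.4%, 5.82% higher and 5.57% lower). Median log2 fold changes over the tested members were 0.031, -0.188, 0.24, 0.098, 0.324 and -0.02 in the order of these 6 comparisons, against -0.056, -0.038, -0.024, -0.005, 0.013 and 0.025 over all tested genes.

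**Figure D1:**
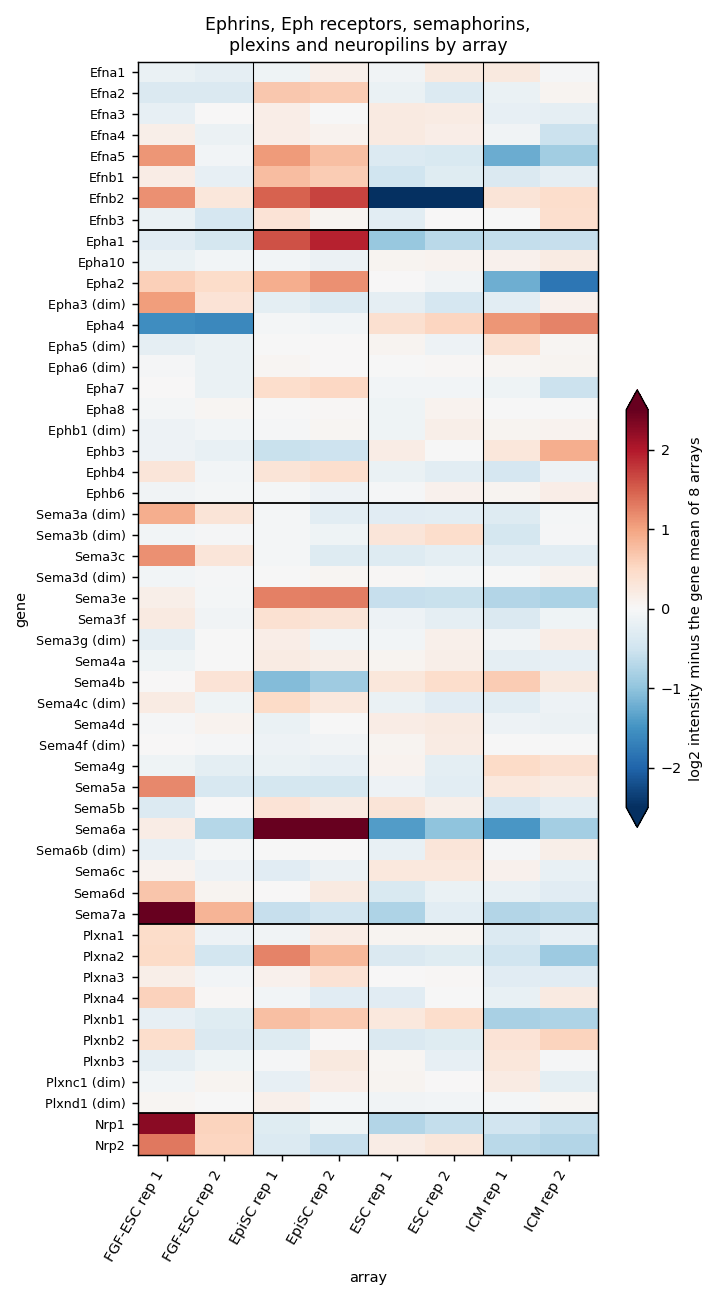
Log2 intensity of each of the 52 members (rows, by family) on each of the 8 arrays (columns), shown as the difference from that gene's mean over all arrays; the colour scale ends at 2.5 in either direction, and members marked as dim were not tested. Epha1, Sema3e and Sema6a stood out as high in EpiSC, Efnb2 as low in ESC, Epha4 as low in FGF-ESC, and Sema7a and Nrp1 as high in FGF-ESC.

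Promoters of 4 genes are shown because these genes carry the clearest group patterns: Efnb2, Epha1 and Sema3e were higher in EpiSC than in ESC, and Epha4 was lowest in FGF-ESC. The sequences come from RefSeq on build GRCm38.p6 and run from 250 bases before to 50 bases after the start of the gene, read 5′ to 3′ on the gene's own strand. Efnb2 lies at chr8:8661193-8661492 (minus strand), Epha1 at chr6:42373219-42373518 (minus), Sema3e at chr5:14025026-14025325 (plus) and Epha4 at chr1:77515039-77515338 (minus). Capitals mark every GC box, GGGCGG or CCGCCC, and every CCAAT box, CCAAT or ATTGG, so that both motifs were searched on both strands.
Efnb2: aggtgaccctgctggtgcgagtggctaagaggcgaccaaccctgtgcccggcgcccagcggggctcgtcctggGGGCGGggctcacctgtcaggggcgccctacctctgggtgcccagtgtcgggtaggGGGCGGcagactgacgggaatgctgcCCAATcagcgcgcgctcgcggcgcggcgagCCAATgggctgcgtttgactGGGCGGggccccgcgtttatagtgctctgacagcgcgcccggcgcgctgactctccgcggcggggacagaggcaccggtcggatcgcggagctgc
Epha1: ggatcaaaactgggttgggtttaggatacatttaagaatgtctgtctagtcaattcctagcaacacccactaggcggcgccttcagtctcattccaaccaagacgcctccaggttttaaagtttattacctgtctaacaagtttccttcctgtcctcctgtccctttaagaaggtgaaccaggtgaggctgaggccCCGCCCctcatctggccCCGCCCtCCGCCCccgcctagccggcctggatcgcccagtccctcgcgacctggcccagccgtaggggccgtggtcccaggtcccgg
Sema3e: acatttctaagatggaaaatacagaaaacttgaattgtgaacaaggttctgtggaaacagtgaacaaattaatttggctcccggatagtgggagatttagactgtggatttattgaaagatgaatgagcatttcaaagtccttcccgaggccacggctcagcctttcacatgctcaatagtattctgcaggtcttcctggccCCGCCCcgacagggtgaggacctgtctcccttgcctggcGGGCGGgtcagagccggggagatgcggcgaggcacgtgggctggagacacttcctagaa
Epha4: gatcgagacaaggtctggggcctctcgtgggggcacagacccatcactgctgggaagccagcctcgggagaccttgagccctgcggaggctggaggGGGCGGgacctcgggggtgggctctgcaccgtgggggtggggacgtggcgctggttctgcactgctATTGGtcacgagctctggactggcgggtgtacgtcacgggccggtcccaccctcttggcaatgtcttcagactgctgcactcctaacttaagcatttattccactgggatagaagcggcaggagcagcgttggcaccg
The Efnb2 window held 35 CpG dinucleotides, 3 GC boxes and 2 CCAAT boxes, and the Epha4 window 17 CpG, 1 GC box and 1 CCAAT box. Epha1 had 14 CpG and 3 GC boxes, Sema3e 11 CpG and 2 GC boxes, and neither held a CCAAT box. Promoters were listed for 46 of the 52 members, 60 windows in all, and 76.7% of these windows held a GC box and 31.7% a CCAAT box, against 35.7% and 37.4% of all 32851 windows in the table. The windows of members had a median of 19.5 CpG, against 7 over the table. The motifs were chosen after the expression values were seen, and a match is a match of letters only.

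Among the ephrin ligands, all 8 of which were tested, Efnb2 had the widest range of group means of any tested member, 4.27. Efnb2 (probe set 17507321) encodes ephrin-B2, a transmembrane ligand known for its role in vessel formation and in the sorting of cells at boundaries. It was at 7.39 and 6.54 in FGF-ESC, 7.73 and 7.95 in EpiSC, 3.67 and 3.46 in ESC and 6.57 and 6.70 in ICM. The ESC arrays thus stood alone, under the median of all values, while the other 3 groups were all more than 6 on every array. Efnb2 rose in FGF-ESC relative to ESC by 3.40 ± 0.25 (10.6-fold, adjusted p = 0.000174) and in EpiSC relative to ESC by 4.27 ± 0.25 (19.3-fold, adjusted p = 2.77e-05). These comparisons share the ESC arrays, and since ESC was near background the folds depend on that floor. Naive ESC were also below the uncultured ICM, with a log2 fold change of -3.07 ± 0.25 (adjusted p = 6.61e-05). EpiSC were above ICM by 1.20 ± 0.25 (adjusted p = 0.00584). FGF-ESC lay below EpiSC by a log2 fold change of -0.87 ± 0.25 (adjusted p = 0.0433), short of the fold minimum, and past it without FGF-ESC replicate 1 (-1.30). The rise over ESC was 2.97 without FGF-ESC replicate 1, the array with the higher fibroblast level.

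Efna5, Efnb1 and Efna2 were each highest in EpiSC on average. Efna5, a lipid-anchored ligand that guides retinal axons, was at 5.71 and 4.55 in FGF-ESC, 5.68 and 5.37 in EpiSC, 4.28 and 4.24 in ESC and 3.37 and 3.74 in ICM. Its FGF-ESC arrays were far apart and overlapped with EpiSC. Efna5 rose in EpiSC relative to ICM by 1.97 ± 0.33 (adjusted p = 0.00191) and relative to ESC by 1.26 ± 0.33 (adjusted p = 0.0299). The rise over ESC did not pass when any of the 4 arrays was left out (1.11 to 1.41). It passed in a fit of these groups alone. The pooled SE includes the spread of the FGF-ESC arrays. In FGF-ESC it rose relative to ICM by 1.57 ± 0.33 (adjusted p = 0.00659), and by 0.99 without FGF-ESC replicate 1, just under the fold minimum.

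Efnb1, the X-linked ephrin-B1 of craniofacial development, was at 5.10 and 4.73 in FGF-ESC, 5.70 and 5.56 in EpiSC, 4.42 and 4.62 in ESC and 4.56 and 4.70 in ICM. Both EpiSC arrays were above all others. The rise in EpiSC relative to ESC was 1.11 ± 0.16 (adjusted p = 0.00178), and relative to ICM Efnb1 had 0.998 ± 0.157 (adjusted p = 0.00143), which missed only the fold minimum and passed it without EpiSC replicate 2 (1.07) or ICM replicate 2 (1.07). Efna2, another lipid-anchored ligand, was at 5.57 and 5.58 in FGF-ESC, 6.61 and 6.57 in EpiSC, 5.773 and 5.598 in ESC and 5.77 and 6.00 in ICM. It fell in FGF-ESC relative to EpiSC, with a log2 fold change of -1.02 ± 0.13 (adjusted p = 0.00129), and was just under the minimum without EpiSC replicate 1 (-0.997). Relative to ESC, EpiSC had 0.91 ± 0.13 for Efna2 (adjusted p = 0.00176), under the minimum.

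The remaining ephrins, Efna1, Efna3, Efna4 and Efnb3, passed in none of the 6 comparisons. Efna1, Efna3 and Efna4 are neighbours on chromosome 3 with no protein-coding gene between them in the RefSeq table. The range of group means was 0.30 for Efna1, 0.43 for Efna3, 0.501 for Efna4 and 0.495 for Efnb3. For Efna3 alone among these an adjusted p was below 0.05 in a comparison, at 0.43 ± 0.13 in ESC relative to ICM (adjusted p = 0.0314).

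**Figure D2:**
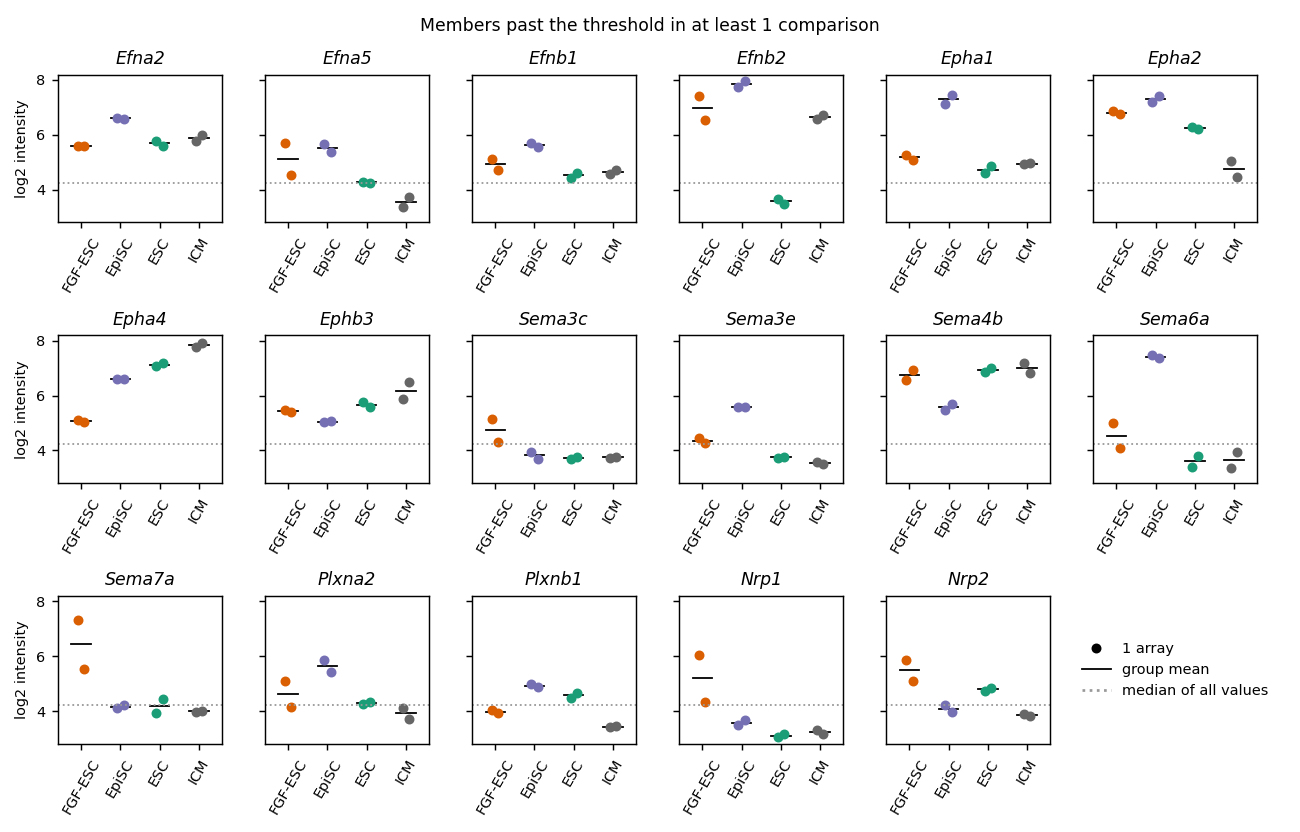
Log2 intensity on each array (points) and group mean (bars) for the 17 members past the threshold in at least 1 comparison; the dotted line is the median of all deposited values, 4.24. Efnb2 was between 3.46 and 3.67 in ESC and above 6 elsewhere, Epha4 was at 5.04 and 5.10 in FGF-ESC and above 6 elsewhere, and Epha1 and Sema6a were above 7 in EpiSC and under 6 elsewhere.

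Eph receptors showed 4 genes that moved, each with a pattern of its own. Epha4 (probe set 17224661) encodes EphA4, a receptor that binds ligands of both the A and the B class and is known from motor axon guidance. It was at 5.10 and 5.04 in FGF-ESC, 6.61 and 6.60 in EpiSC, 7.06 and 7.19 in ESC and 7.76 and 7.90 in ICM. The 4 groups did not overlap, and the FGF-ESC arrays were the lowest. Epha4 fell in FGF-ESC relative to all 3 other groups, with log2 fold changes of -2.06 ± 0.12 against ESC (adjusted p = 4.92e-05), -1.53 ± 0.12 against EpiSC (adjusted p = 0.000127) and -2.76 ± 0.12 against ICM (adjusted p = 2.1e-06). These 3 comparisons share the FGF-ESC arrays, which differed from each other by 0.06 for Epha4. Without FGF-ESC replicate 1, the array with the higher fibroblast level, the values were -2.09, -1.56 and -2.79. EpiSC were also below ICM, by a log2 fold change of -1.23 ± 0.12 (adjusted p = 9.69e-05). ESC had -0.70 ± 0.12 against ICM (adjusted p = 0.00254) and EpiSC -0.53 ± 0.12 against ESC (adjusted p = 0.0161), both under the fold minimum.

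Epha1 was highest in EpiSC. It encodes EphA1, a receptor of epithelial cells (probe set 17466397), and was at 5.25 and 5.08 in FGF-ESC, 7.12 and 7.46 in EpiSC, 4.59 and 4.85 in ESC and 4.93 and 4.96 in ICM. The lowest EpiSC array was well above the highest array of every other group. Epha1 rose in EpiSC relative to ESC by 2.56 ± 0.16 (5.91-fold, adjusted p = 3.18e-05) and relative to ICM by 2.34 ± 0.16 (adjusted p = 1.38e-05). It was lower in FGF-ESC than in EpiSC, with a log2 fold change of -2.12 ± 0.16 (adjusted p = 0.000114).

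Epha2 was lowest in ICM. This receptor of epithelial and many tumour cells (probe set 17421033) was at 6.88 and 6.74 in FGF-ESC, 7.18 and 7.42 in EpiSC, 6.29 and 6.19 in ESC and 5.05 and 4.47 in ICM. All 3 cultured groups were above ICM without overlap, and ICM also had the highest means of trophectoderm and primitive endoderm markers. The rise over ICM was 2.05 ± 0.19 in FGF-ESC (adjusted p = 0.000117), 2.55 ± 0.19 in EpiSC (adjusted p = 2.7e-05) and 1.48 ± 0.19 in ESC (adjusted p = 0.000705), in comparisons that share the ICM arrays. Between EpiSC and ESC it was 1.06 ± 0.19 (adjusted p = 0.00614). This did not pass without ESC replicate 2 (1.01) or EpiSC replicate 2 (0.95), but passed in a fit of these groups alone. Ephb3, a receptor best known from the intestinal crypt, was at 5.47 and 5.41 in FGF-ESC, 5.03 and 5.07 in EpiSC, 5.76 and 5.58 in ESC and 5.87 and 6.49 in ICM. It fell in EpiSC relative to ICM by a log2 fold change of -1.13 ± 0.19 (adjusted p = 0.00224), and had -0.81 without ICM replicate 2, under the fold minimum. In FGF-ESC it had -0.74 ± 0.19 against ICM (adjusted p = 0.0178), under the fold minimum. Across the alternative fits this ranged from -1.06, without ICM replicate 1, to -0.43.

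The other 5 tested receptors did not pass. Epha7 and Ephb4, a receptor of vascular ephrin-B2, were highest in EpiSC, with 0.54 ± 0.16 (adjusted p = 0.0448) and 0.58 ± 0.16 (adjusted p = 0.0381) over ESC, both under the fold minimum. Epha7 had 0.80 ± 0.16 in EpiSC over ICM (adjusted p = 0.00437). Across the alternative fits this ranged from 0.59 to 1.01, the latter without ICM replicate 1 and past the minimum. Epha10 and Ephb6, which are known to lack kinase activity, had ranges of group means of 0.27 and 0.21, and Epha8 had the smallest range of all tested members, 0.02. Of the receptors that were too dim to test, Epha3 was at 4.75 and 4.04 in FGF-ESC, against 3.27 to 3.81 on the other arrays. With no filter on dim genes it had 1.02 ± 0.23 in FGF-ESC relative to ESC (adjusted p = 0.0297).

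**Figure D3:**
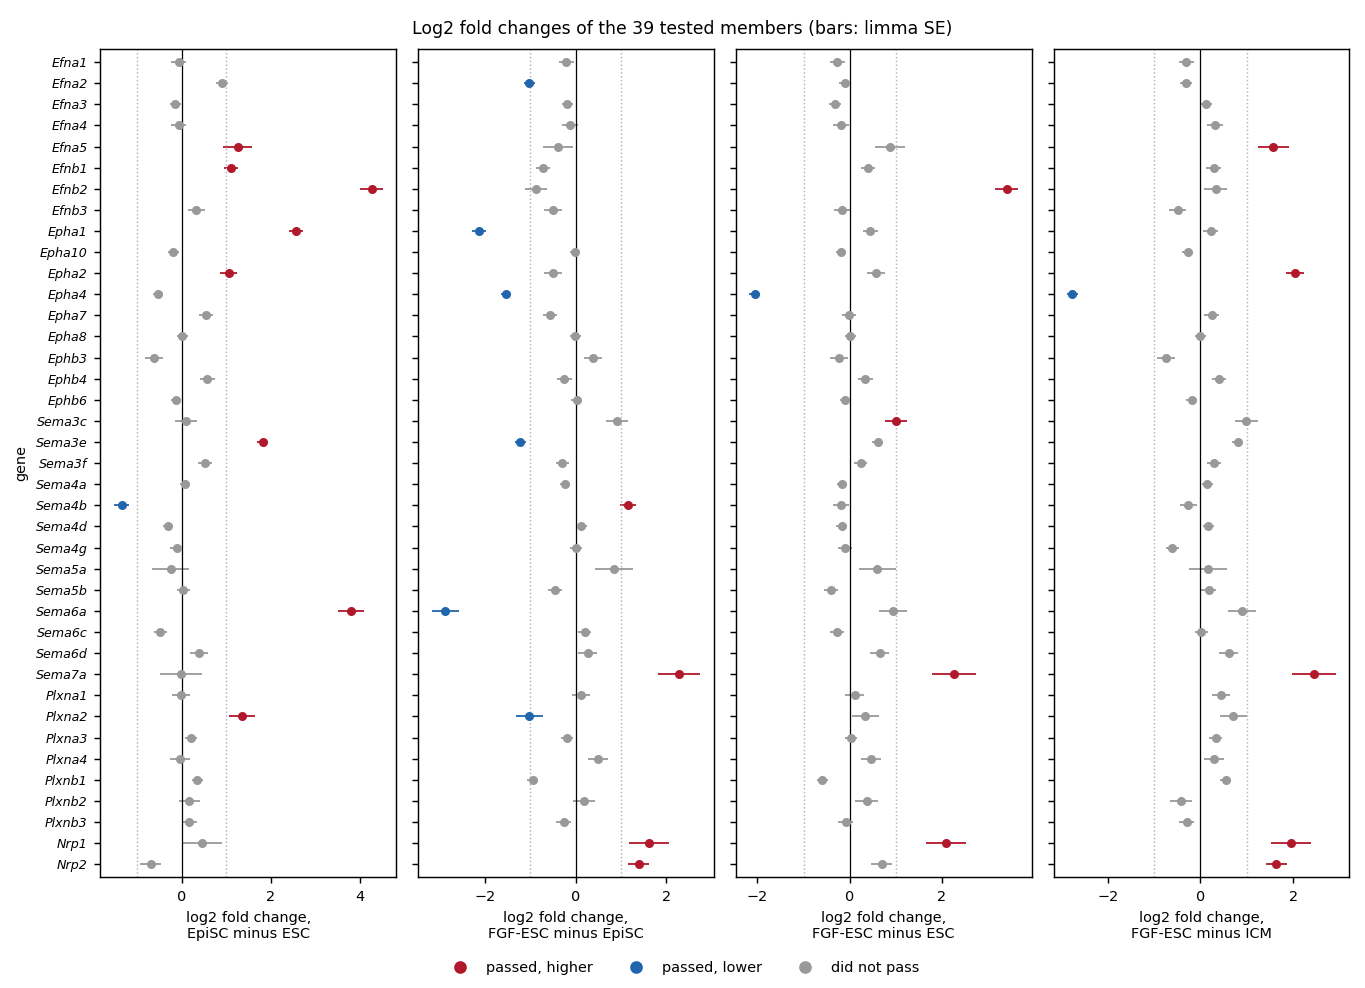
Log2 fold changes (points) with limma's SE (bars, n = 2 arrays per group) for the 39 tested members in EpiSC relative to ESC and in FGF-ESC relative to EpiSC, ESC and ICM; dotted lines mark the fold minimum of 1. In EpiSC relative to ESC 8 members were past the threshold upwards, with Efnb2 at 4.27 and Sema6a at 3.81, and Epha4 was the only member past it downwards in all 3 comparisons of FGF-ESC.

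Semaphorins were tested for 13 of 20 genes, and Sema6a, Sema3e and Sema4b set EpiSC apart. Sema6a (probe set 17354299), a transmembrane semaphorin that guides axons and migrating granule cells, was at 4.99 and 4.10 in FGF-ESC, 7.47 and 7.36 in EpiSC, 3.41 and 3.80 in ESC and 3.36 and 3.95 in ICM. Only EpiSC was far above the median of all values. Sema6a rose in EpiSC relative to ESC by 3.81 ± 0.30 (14.0-fold, adjusted p = 9.65e-05) and relative to ICM by 3.76 ± 0.30 (adjusted p = 3.63e-05), with the lower group near background in both. FGF-ESC were below EpiSC by a log2 fold change of -2.87 ± 0.30 (7.31-fold lower, adjusted p = 0.000539), which was -3.32 without FGF-ESC replicate 1 and -2.42 without FGF-ESC replicate 2. FGF-ESC had 0.89 ± 0.30 for Sema6a over ICM (adjusted p = 0.0486), under the fold minimum. This difference was 0.445 without FGF-ESC replicate 1, 1.34 without FGF-ESC replicate 2 and 1.19 without ICM replicate 2.

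Sema3e (probe set 17434813), a secreted semaphorin that restrains vessel growth, was also highest in EpiSC and next highest in FGF-ESC, with a narrower range. It was at 4.45 and 4.25 in FGF-ESC, 5.57 and 5.58 in EpiSC, 3.74 and 3.76 in ESC and 3.57 and 3.52 in ICM. FGF-ESC lay between EpiSC and ESC without overlap. The rise in EpiSC was 1.82 ± 0.12 relative to ESC (adjusted p = 4.1e-05) and 2.03 ± 0.12 relative to ICM (adjusted p = 7.18e-06). In FGF-ESC it fell relative to EpiSC, with -1.22 ± 0.12 (adjusted p = 0.000365). FGF-ESC also had 0.60 ± 0.12 over ESC (adjusted p = 0.0133) and 0.81 ± 0.12 over ICM (adjusted p = 0.00108), both under the fold minimum. On the EpiSC arrays, 10 of 10 primed markers and 6 of 9 neural markers were above the median of all values. In ESC these were 6 primed markers on each array, and 4 and 5 neural ones. Neural means were 5.48 and 5.32 in EpiSC against 4.33 and 4.30 in ESC. Of 6 tested neural markers 3 rose and 0 fell in EpiSC relative to ESC. Fabp7 among the neural markers was at 9.36 and 8.15 in EpiSC and 3.51 and 3.44 in ESC. The part of primed and neural markers in these results was not tested.

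Sema4b (probe set 17479497), a membrane-bound semaphorin with a known partner at synapses, ran the other way. It was at 6.57 and 6.91 in FGF-ESC, 5.49 and 5.68 in EpiSC, 6.86 and 6.999 in ESC and 7.19 and 6.81 in ICM. EpiSC was the lowest group, and the other 3 overlapped. Sema4b fell in EpiSC relative to ESC by 1.35 ± 0.18 on the log2 scale (adjusted p = 0.00118) and relative to ICM by 1.42 ± 0.18 (adjusted p = 0.000379). It rose in FGF-ESC relative to EpiSC by 1.16 ± 0.18 (adjusted p = 0.00302), and was at 0.99 without FGF-ESC replicate 2, just under the fold minimum.

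Sema7a and Sema3c were highest in FGF-ESC, on arrays that also carried fibroblast marker transcripts. Sema7a, a lipid-anchored semaphorin of immune and neural cells (probe set 17517812), was at 7.34 and 5.56 in FGF-ESC, 4.12 and 4.22 in EpiSC, 3.94 and 4.44 in ESC and 3.98 and 4.02 in ICM. Both FGF-ESC arrays were above all others but differed from each other by 1.78. It rose by 2.28 ± 0.47 relative to EpiSC (adjusted p = 0.0119), 2.26 ± 0.47 relative to ESC (adjusted p = 0.0174) and 2.45 ± 0.47 relative to ICM (adjusted p = 0.00443). Without FGF-ESC replicate 1 these values were 1.39, 1.37 and 1.56, and without FGF-ESC replicate 2 they were 3.17, 3.15 and 3.34. With 1 FGF-ESC array the spread comes from the other groups, so passing in these fits cannot speak to the spread between FGF-ESC arrays. The rise relative to ESC did not pass without ESC replicate 1 (adjusted p = 0.14) or ESC replicate 2 (0.0798), nor in a fit of these groups alone (0.0827). That relative to EpiSC did not pass without EpiSC replicate 1 (adjusted p = 0.0812) or EpiSC replicate 2 (0.0646), nor in a fit of these groups alone (0.0714). Sema3c, a secreted semaphorin of heart outflow and vessel development, was at 5.16 and 4.31 in FGF-ESC, 3.96 and 3.69 in EpiSC, 3.69 and 3.76 in ESC and 3.74 and 3.75 in ICM. It rose relative to ESC by 1.01 ± 0.24 (adjusted p = 0.0296), which did not pass without FGF-ESC replicate 1 (0.58, adjusted p = 0.0525), ESC replicate 1 (0.173) or ESC replicate 2 (0.138), nor in a fit of these groups alone (0.0976). Relative to EpiSC and ICM it had 0.91 ± 0.24 (adjusted p = 0.0342) and 0.99 ± 0.24 (adjusted p = 0.0144), under the fold minimum. These values were 0.48 and 0.56 without FGF-ESC replicate 1, and 1.33 and 1.41 without FGF-ESC replicate 2.

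A further 8 semaphorins were tested and did not pass. Sema5a was at 6.02 and 4.42 in FGF-ESC, 4.37 and 4.37 in EpiSC, 4.68 and 4.55 in ESC and 5.07 and 5.03 in ICM, so that a single FGF-ESC array stood above the rest. Sema3f had 0.53 ± 0.15 in EpiSC over ESC (adjusted p = 0.0403) and 0.59 ± 0.15 over ICM (adjusted p = 0.0141). Sema4g, at 4.67 and 4.56 in ICM and 3.93 to 4.27 elsewhere, had -0.61 ± 0.14 in FGF-ESC against ICM (adjusted p = 0.0109). Sema4a, Sema4d, Sema5b, Sema6c and Sema6d had ranges of group means between 0.34 and 0.65.

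Plexins and neuropilins, the receptors on the semaphorin side, were tested for 7 of 9 and for both genes. Plxna2 (plexin-A2, probe set 17220974) was at 5.11 and 4.17 in FGF-ESC, 5.87 and 5.44 in EpiSC, 4.27 and 4.34 in ESC and 4.13 and 3.73 in ICM. Both EpiSC arrays were above all others. It rose in EpiSC relative to ICM by 1.72 ± 0.29 (adjusted p = 0.00209) and relative to ESC by 1.35 ± 0.29 (adjusted p = 0.0139). The rise over ESC did not pass without ESC replicate 1 (1.32), ESC replicate 2 (1.39) or EpiSC replicate 1 (1.14). It passed in a fit of these groups alone. In FGF-ESC relative to EpiSC Plxna2 fell by 1.02 ± 0.29 on the log2 scale (adjusted p = 0.0435), a call lost without FGF-ESC replicate 2 (-0.55, adjusted p = 0.107), EpiSC replicate 1 (0.249) or EpiSC replicate 2 (0.0848), with quantile normalization (0.0502), with no filter (0.0583) and in a fit of these groups alone (0.13).

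Plxnb1, a receptor of Sema4d, was at 4.04 and 3.94 in FGF-ESC, 4.98 and 4.89 in EpiSC, 4.49 and 4.67 in ESC and 3.42 and 3.47 in ICM on its brighter probe set (17522167). The groups did not overlap, with ICM the lowest. It rose relative to ICM by 1.49 ± 0.12 in EpiSC (adjusted p = 3.78e-05) and by 1.14 ± 0.12 in ESC (adjusted p = 0.00026). Its other probe set (17531286), which was dimmer, did not show this, with means of 4.01 in EpiSC, 4.19 in ESC and 4.07 in ICM, and the mean of both had 0.72 in EpiSC and 0.63 in ESC over ICM, under the fold minimum. FGF-ESC were below EpiSC for Plxnb1 by -0.95 ± 0.12 (adjusted p = 0.00135) and below ESC by -0.59 ± 0.12 (adjusted p = 0.0157), short of the minimum. Plxna1, Plxna3, Plxna4, Plxnb2 and Plxnb3 did not pass in any comparison. Plxnb2, a broadly present plexin, was at 7.02 and 6.23 in FGF-ESC, 6.27 and 6.61 in EpiSC, 6.23 and 6.29 in ESC and 6.94 and 7.15 in ICM, with -0.79 ± 0.24 in ESC against ICM (adjusted p = 0.0383).

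Both neuropilins, co-receptors for class 3 semaphorins and for VEGF, were highest in FGF-ESC. Nrp1 (probe set 17506991) was at 6.05 and 4.35 in FGF-ESC, 3.49 and 3.69 in EpiSC, 3.05 and 3.19 in ESC and 3.31 and 3.19 in ICM. Nrp2 (probe set 17213548) was at 5.87 and 5.10 in FGF-ESC, 4.22 and 3.98 in EpiSC, 4.75 and 4.85 in ESC and 3.89 and 3.82 in ICM. The FGF-ESC arrays lay above all others for both genes. Nrp1 rose by 1.61 ± 0.44 relative to EpiSC (adjusted p = 0.0349), 2.08 ± 0.44 relative to ESC (adjusted p = 0.0178) and 1.96 ± 0.44 relative to ICM (adjusted p = 0.00909), against groups near background. Without FGF-ESC replicate 1 these values were 0.76, 1.23 and 1.10, the first under the fold minimum. Without FGF-ESC replicate 2 they were 2.46, 2.93 and 2.81. Calls for Nrp1 were also lost without EpiSC replicate 1 (adjusted p = 0.174), EpiSC replicate 2 (0.12), ESC replicate 1 (0.128), ESC replicate 2 (0.103) or ICM replicate 2 (0.0528), each in the comparison with that group, and in fits of FGF-ESC with EpiSC alone (0.132) or with ESC alone (0.0827). Nrp2 rose by 1.39 ± 0.23 relative to EpiSC (adjusted p = 0.00435) and 1.64 ± 0.23 relative to ICM (adjusted p = 0.000852), and by 1.002 and 1.25 without FGF-ESC replicate 1. ESC had 0.94 ± 0.23 for Nrp2 over ICM (adjusted p = 0.0139), under the fold minimum.

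Several members differed between both FGF-ESC arrays, which also differed in their fibroblast level. The 25 fibroblast markers were higher on FGF-ESC replicate 1 than on replicate 2 by a mean of 1.22, and 24 of them were higher, Sfrp1 being the exception. Among the 39 tested members 29 were higher on replicate 1, 13 of them by at least 0.5, while the median difference was 0.21 for members and -0.02 for all tested genes. The widest differences were those of Sema7a (1.78), Nrp1 (1.70), Sema5a (1.60) and Efna5 (1.16). Efnb2 differed by 0.86 and Nrp2 by 0.77, while Epha2, Epha1 and Epha4 differed by 0.14, 0.17 and 0.06. In EpiSC, ESC and ICM the numbers of members apart by at least 0.5 were 0, 1 and 3. The part of fibroblast RNA in the rises of Efnb2, Efna5, Sema7a, Sema3c, Nrp1 and Nrp2 in FGF-ESC was not tested. For these genes the values without FGF-ESC replicate 1 are those given with each gene. The numbers of members that rose in FGF-ESC moved when an array was left out, and so did those of all tested genes. Such numbers depend on the spread assumed for the group left with 1 array.

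**Figure D4:**
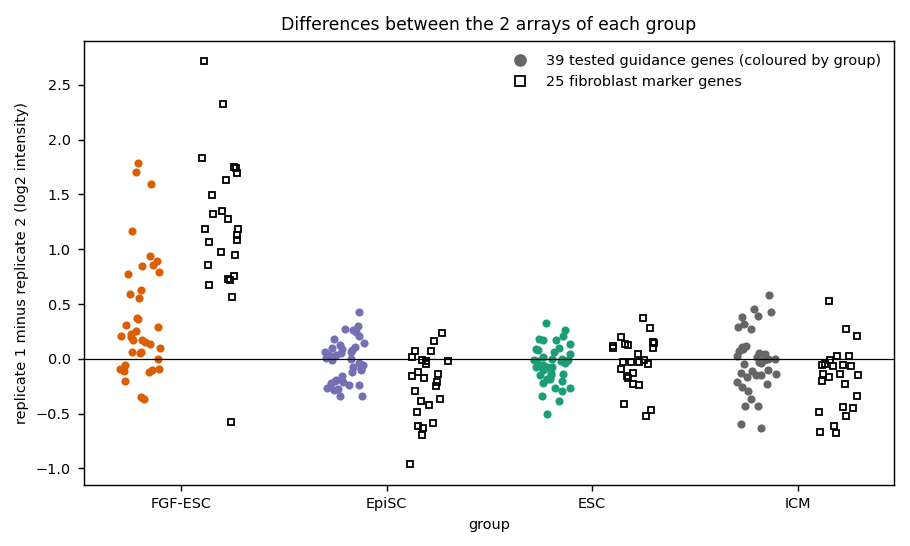
Difference in log2 intensity between replicate 1 and replicate 2 of each group, for the 39 tested members (filled circles) and 25 fibroblast markers (open squares); points are spread sideways for clarity. In FGF-ESC the members reached 1.78 and the fibroblast markers had a mean of 1.22, while 0, 1 and 3 members were apart by at least 0.5 in EpiSC, ESC and ICM.

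Known ligand and receptor partners could be set side by side. Efnb2 and Ephb4, which act as a pair in vessels, had group means of 6.97 and 5.89 in FGF-ESC, 7.84 and 6.14 in EpiSC, 3.57 and 5.55 in ESC and 6.64 and 5.49 in ICM, so that the ligand, and not the receptor, was under the median of all values in ESC. Sema6a and Plxna2, a pair known from the mouse cerebellum and hippocampus, both had their highest mean in EpiSC, 7.41 and 5.65. Sema3e acts through Plxnd1 and Sema7a through Plxnc1 and beta-1 integrin. Plxnd1 was between 3.76 and 3.97 and Plxnc1 between 3.71 and 4.15 on all arrays, under the median of all values. Itgb1, the beta-1 integrin chain, was at 9.50 and 8.53 in FGF-ESC, 8.75 and 8.95 in EpiSC, 8.051 and 7.999 in ESC and 7.89 and 7.64 in ICM.

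Proteins that act beside or below these receptors were taken from lists. Of 28 tested partners of Eph and ephrin signalling (34 listed), 2 rose and 1 fell in FGF-ESC relative to ESC, 0 passed relative to EpiSC, and 1 rose and 1 fell in EpiSC relative to ESC, which is 10.7%, 0% and 7.14% of them, against 6.21%, 7.28% and 7.36% of all tested genes. Relative to ICM, 1 rose and 2 fell in FGF-ESC, 2 rose and 3 fell in EpiSC and 0 rose and 3 fell in ESC (10.7%, 17.9% and 10.7%, against 14.8%, 15.3% and 11.4%). The median log2 fold changes were -0.079, 0.015, 0.121, -0.06, 0.199 and 0.072 in this order, against -0.056, -0.038, -0.005, -0.024, 0.013 and 0.025 for all tested genes. Yes1, a SRC-family kinase, was at 6.83 and 7.19 in FGF-ESC, 6.76 and 6.83 in EpiSC, 8.02 and 8.10 in ESC and 7.17 and 7.50 in ICM. It fell in EpiSC relative to ESC by 1.26 ± 0.16 on the log2 scale (adjusted p = 0.00111) and in FGF-ESC relative to ESC by 1.05 ± 0.16 (adjusted p = 0.00552), the last of which did not pass without FGF-ESC replicate 1 (-0.87) or either ESC array. Nck2, an adaptor of ephrin-B reverse signalling, was at 5.30 and 5.27 in ICM and 3.64 to 4.13 in all cultured groups.

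On the semaphorin side 22 of 24 listed partners of plexin signalling were tested. In FGF-ESC 2 rose and 0 fell relative to ESC, 2 rose and 2 fell relative to EpiSC, and 4 rose and 1 fell relative to ICM, while in EpiSC 3 rose and 2 fell relative to ESC. These are 9.09%, 18.2%, 22.7% and 22.7% of the list, against 6.21%, 7.28%, 14.8% and 7.36% of all tested genes. Relative to ICM, 3 rose and 2 fell both in EpiSC and in ESC (22.7% each, against 15.3% and 11.4%). The median log2 fold changes were 0.142, 0.155, 0.062, -0.081, -0.035 and -0.063 in this order, against -0.056, -0.038, -0.024, -0.005, 0.013 and 0.025 for all tested genes. Crmp1, a mediator of semaphorin 3A signals to the cytoskeleton, was at 5.34 and 5.34 in FGF-ESC, 6.37 and 6.64 in EpiSC, 4.87 and 4.88 in ESC and 4.42 and 4.28 in ICM. It rose in EpiSC relative to ESC by 1.63 ± 0.13 (adjusted p = 9.65e-05) and was lower in FGF-ESC than in EpiSC, with -1.17 ± 0.13 (adjusted p = 0.000704). Mras, a RAS-family GTPase, was low in EpiSC alone, at 5.64 and 5.42 in FGF-ESC, 3.82 and 3.61 in EpiSC, 5.76 and 5.78 in ESC and 6.21 and 6.42 in ICM. Dpysl2, known as CRMP2, was at 8.05 and 7.31 in FGF-ESC, 8.20 and 8.05 in EpiSC, 6.65 and 6.75 in ESC and 4.92 and 4.33 in ICM, which left the cultured groups above ICM. Rnd1, a small GTPase that binds plexins, was at 6.54 and 5.97 in ICM and 3.72 to 4.07 elsewhere.

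Of 12 tested surface partners of semaphorins, plexins and neuropilins (18 listed), 0 passed between FGF-ESC and ESC or between EpiSC and ESC, 1 rose in FGF-ESC relative to EpiSC, and 3 rose and 1 fell in FGF-ESC relative to ICM. These are 0%, 0%, 8.33% and 33.3% of the list, against 6.21%, 7.36%, 7.28% and 14.8% of all tested genes. Relative to ICM, 2 rose and 1 fell both in EpiSC and in ESC (25% each, against 15.3% and 11.4%). The median log2 fold changes were 0.03, 0.062, 0.037, 0.25, 0.173 and 0.22 in this order, against -0.056, -0.005, -0.038, -0.024, 0.013 and 0.025 for all tested genes. Vegfa, a VEGF that also binds neuropilins, rose in FGF-ESC relative to ICM by 2.12 ± 0.13 (adjusted p = 1.28e-05). Its rise over ICM was 1.48 ± 0.13 in EpiSC (adjusted p = 5.5e-05) and 1.33 ± 0.13 in ESC (adjusted p = 0.000159). Timd2, a receptor reported for Sema4a in mouse T cells, was at 7.42 and 7.34 in ICM and 3.02 to 3.36 in all cultured groups.

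The other guidance families, netrins, Slits, RGM proteins and their receptors, were tested for 10 of 22 listed genes. In FGF-ESC 2 rose relative to ESC, 3 relative to EpiSC and 6 relative to ICM, and 0 fell in any of them, while between EpiSC and ESC 0 rose and 1 fell. These are 20%, 30%, 60% and 10% of the list, against 6.21%, 7.28%, 14.8% and 7.36% of all tested genes. Relative to ICM, 3 rose and 0 fell both in EpiSC and in ESC (30% each, against 15.3% and 11.4%). The median log2 fold changes were 0.03, 0.358, 1.044, -0.034, 0.305 and 0.24 in this order, against -0.056, -0.038, -0.024, -0.005, 0.013 and 0.025 for all tested genes. Slit3, a secreted ligand of ROBO receptors, was at 8.47 and 6.82 in FGF-ESC, 4.89 and 5.07 in EpiSC, 4.51 and 4.44 in ESC and 4.75 and 4.89 in ICM, and rose relative to ESC by 3.17 ± 0.42 (adjusted p = 0.00287). It was higher on FGF-ESC replicate 1, as were 24 of the 25 fibroblast markers, and the part of fibroblast RNA was not tested. Robo1, a Slit receptor, was at 6.62 and 5.78 in FGF-ESC, 4.97 and 4.89 in EpiSC, 6.12 and 6.12 in ESC and 3.65 and 3.65 in ICM, and rose in FGF-ESC relative to ICM by 2.55 ± 0.23 (adjusted p = 0.000101) and in ESC relative to ICM by 2.47 ± 0.23 (adjusted p = 0.000144).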

How the data were processed

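RNA of 8 samples went through NuGEN amplification and biotin labelling and was hybridised to Affymetrix Mouse Gene 2.1 arrays, per the labels. The deposited log2 intensities, 1 per probe set and array, come from the program Expression Console (Affymetrix, version 1.3.1) according to the submitters' processing notes. How the authors summarised probes and corrected background is not given in the sources used here. As base of the logarithm 2 was taken, from the range of the values. Array medians lay between 4.16 and 4.28, and no further normalization was applied. The number of arrays limits the precision.

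Of 41345 probe sets, 23521 had 1 gene in the platform annotation, 1814 several and 16010 none. The filter, above 4.24 on at least 2 arrays, left 13597 of 22180 genes. The tests used limma 3.58.1 under R 4.3.3 (lmFit, contrasts.fit, eBayes) in 1 means model over all 8 arrays, with 4 residual degrees of freedom and Benjamini-Hochberg adjustment within each of 6 comparisons. Each SE rests on the pooled spread, and residual SDs were 0.279 in FGF-ESC, 0.151 in EpiSC, 0.124 in ESC and 0.208 in ICM. The code was tested on simulated data in which all groups had the same spread per gene, unlike these arrays.

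Every member that passed in a comparison is named, with its value on every array. From each partner list up to 3 genes with the smallest adjusted p in a comparison could be named. A further partner list is not reported here. The members and lists were chosen with earlier results of these data known. Alternatives were each array left out, replicate number as a block, no filter, quantile normalization, the mean of a gene's probe sets and a fit of the 2 groups alone.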

Additional observations from a re-analysis of the deposited data

How the results depend on the processing

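Of the 44 calls of members over the 6 comparisons, each repeated under the alternatives, 357 of the repeats kept direction and threshold, 39 kept direction but did not pass, and 0 changed direction. Numbers of members past the threshold moved by over 1.5 times as follows. In FGF-ESC relative to ESC, 4 rose, 1 to 8 with an array left out and 1 in a fit of these groups alone. Relative to EpiSC, 4 rose, 2 to 5 with an array left out and 2 in the fit of both groups alone. Relative to ICM, 5 rose and 1 fell, 4 to 8 and 1 to 2 with an array left out. In EpiSC relative to ESC, 8 rose, 5 to 6 with an array left out, the lowest without ESC replicate 2. In ESC relative to ICM, 2 rose, and 1 with the mean of a gene's probe sets, since the probe sets of Plxnb1 differed. The cause of the other moves was not tested. Numbers over all tested genes moved too, with 717 rising in FGF-ESC relative to ESC and 424 in the fit of these groups alone. A group left with 1 array is assumed to vary like the other groups. FGF-ESC had the largest residual SD, 0.279, so with 1 FGF-ESC array the assumed spread is smaller than that of the full group. The replicate number as a block changed 0 of the 44 calls. Across 13597 genes, deviations of same-numbered arrays correlated between -0.086 and 0.042. This cannot show whether same-numbered arrays were handled together, which the labels do not give. Members near the median of all values, 4.24, are limited by background, and their folds depend on it.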
